A study of Mus musculus with 9 samples.

Results

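Expression of 9 adipocyte genes (Adipoq, Cfd, Retn, Plin1, Cidec, Fabp4, Lpl, Pparg and Car3) and of Cyp2e1 was examined in primary 4T1 mammary tumors by RNA sequencing. The 10 genes were found by their Entrez identifiers among the 18755 genes of the deposited count table, and they had been selected on their measured counts in BI against vehicle tumors, so that this difference is described below and not tested for them. 4T1 is an established mammary carcinoma cell line from BALB/c mice. For each tumor, 1000000 4T1 cells in 100 µl of saline were injected into mammary fat pad 9 of a female BALB/c mouse aged 6 to 10 weeks. From day 15 after injection, the mice received for 5 days either the vehicle, 0.5% Natrosol (3 tumors, vehicle 1 to 3), or 50 mg/kg BI 853520, an inhibitor of focal adhesion kinase abbreviated here as BI (6 tumors, BI 4 to 9). Both groups carried the same cell line and the same fat pad site, and RNA came from snap-frozen pieces of whole tumor, which also hold host cells. How much fat pad a piece contained was not given in the sources used here. In such bulk samples, fewer cells of a type and less RNA per cell cannot be told apart. Total counts ranged from 21727879 to 33850245 in vehicle tumors and from 16931607 to 22349873 in BI tumors. Before normalization for composition, 3 counts corresponded to between 0.0886 and 0.177 counts per 1000000 counts of a library. The CPM given below are counts per 1000000 counts of a library, normalized for composition.

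White adipocytes store triglyceride in a large droplet, take up fatty acids from circulating lipoproteins, and secrete hormones and other proteins. Their differentiation and mature gene program depend on the nuclear receptor PPAR gamma, which works together with C/EBP transcription factors. The mammary gland is embedded in such fat, and tumors placed in a fat pad grow against it. Cyp2e1 encodes a cytochrome P450 that oxidizes ethanol, acetone and fatty acids; it is best known from liver and is also expressed in fat.

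To show the DNA at their start sites, the promoters of 3 members are printed (RefSeq sequences, 250 bases before to 50 bases after the start, placed on mm9 by exact match). RefSeq promoters were matched for 7 of the 10 members, with 10 promoters in all; Fabp4, Lpl and Car3 had no entry. Adipoq and Cyp2e1 are given because their ratio separated the treatment groups, and Plin1 because its gene product coats the lipid droplet and is a defining adipocyte marker. The Adipoq promoter lies at chr16:23146359-23146658 on the plus strand, the Cyp2e1 promoter at chr7:147949468-147949767 on the plus strand, and the Plin1 promoter at chr7:86877613-86877912 on the minus strand. Capitals mark the letters TATAAA (the TATA box), CCAAT (the CCAAT box), TTNNGCAA (a spaced C/EBP motif) and AGGTCA (a nuclear receptor half-site), searched on both strands.
Adipoq: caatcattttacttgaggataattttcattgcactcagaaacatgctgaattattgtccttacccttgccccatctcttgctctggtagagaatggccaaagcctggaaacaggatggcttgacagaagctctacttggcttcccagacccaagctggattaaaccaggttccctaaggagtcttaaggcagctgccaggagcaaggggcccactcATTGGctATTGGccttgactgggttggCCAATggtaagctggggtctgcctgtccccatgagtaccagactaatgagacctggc
Cyp2e1: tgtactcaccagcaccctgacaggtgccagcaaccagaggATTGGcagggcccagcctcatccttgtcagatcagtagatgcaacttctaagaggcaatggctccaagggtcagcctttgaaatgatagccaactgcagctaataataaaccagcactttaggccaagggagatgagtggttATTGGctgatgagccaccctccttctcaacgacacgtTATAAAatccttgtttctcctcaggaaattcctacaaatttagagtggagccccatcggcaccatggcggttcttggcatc
Plin1: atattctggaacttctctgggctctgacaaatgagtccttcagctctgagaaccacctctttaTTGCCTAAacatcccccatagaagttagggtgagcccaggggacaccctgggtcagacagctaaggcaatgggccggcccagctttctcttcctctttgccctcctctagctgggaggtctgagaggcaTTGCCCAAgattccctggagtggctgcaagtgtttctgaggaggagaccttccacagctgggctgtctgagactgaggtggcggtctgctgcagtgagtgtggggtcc
The Cyp2e1 promoter held TATAAA with its first base at -31 from the start and CCAAT on the minus strand at -210 and -68. The Adipoq promoter held CCAAT at -34, -27 and -7 and no TATAAA. The Plin1 promoter held TTNNGCAA at -187 and -58, both on the minus strand. Over the 10 promoters of the members, TATAAA was present in 2, CCAAT in 4, TTNNGCAA in 3 and AGGTCA in 2. Over all 32851 promoters of this length, TATAAA was present in 13.6%, CCAAT in 37.4%, TTNNGCAA in 10.8% and AGGTCA in 16.3%. The C/EBP palindrome TTGCGCAA (0.183% of all promoters), the PPAR direct repeat AGGTCANAGGTCA (0.0396%) and the E-box CACGTG (7.15%) were in none of the 10; AGGTCA is contained in the direct repeat, and TTGCGCAA is a case of TTNNGCAA. These matches describe letters in a window only.

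All 10 members had a higher mean in BI tumors than in vehicle tumors, but 9 of them overlapped between the groups, and each of the 10 was highest in the same tumor, BI 9. Fold changes from a fit over 13966 genes (edgeR) ranged on the log2 scale from 0.47 for Lpl to 3.24 for Cyp2e1, with a median of 1.23 against -0.0037 over all genes tested. After Benjamini-Hochberg adjustment across the whole table (limit 0.05), 2 of the 10, Pparg and Cyp2e1, were called higher and 0 lower, where 14.6% of all genes tested were called higher and 14.1% lower. At an unadjusted p of at most 0.05, 0 members were lower in edgeR, DESeq2 or limma-voom. With the limit of 0.05 set on the unadjusted p and a change of at least 1.5-fold required, 6 of the 10 were higher, against 9.59% of genes. Nothing is read from these counts, because the members were proposed from this difference. Without vehicle 3 the edgeR count fell from 2 to 0, and without vehicle 2 it was 1 (Cyp2e1).

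**Figure D1:**
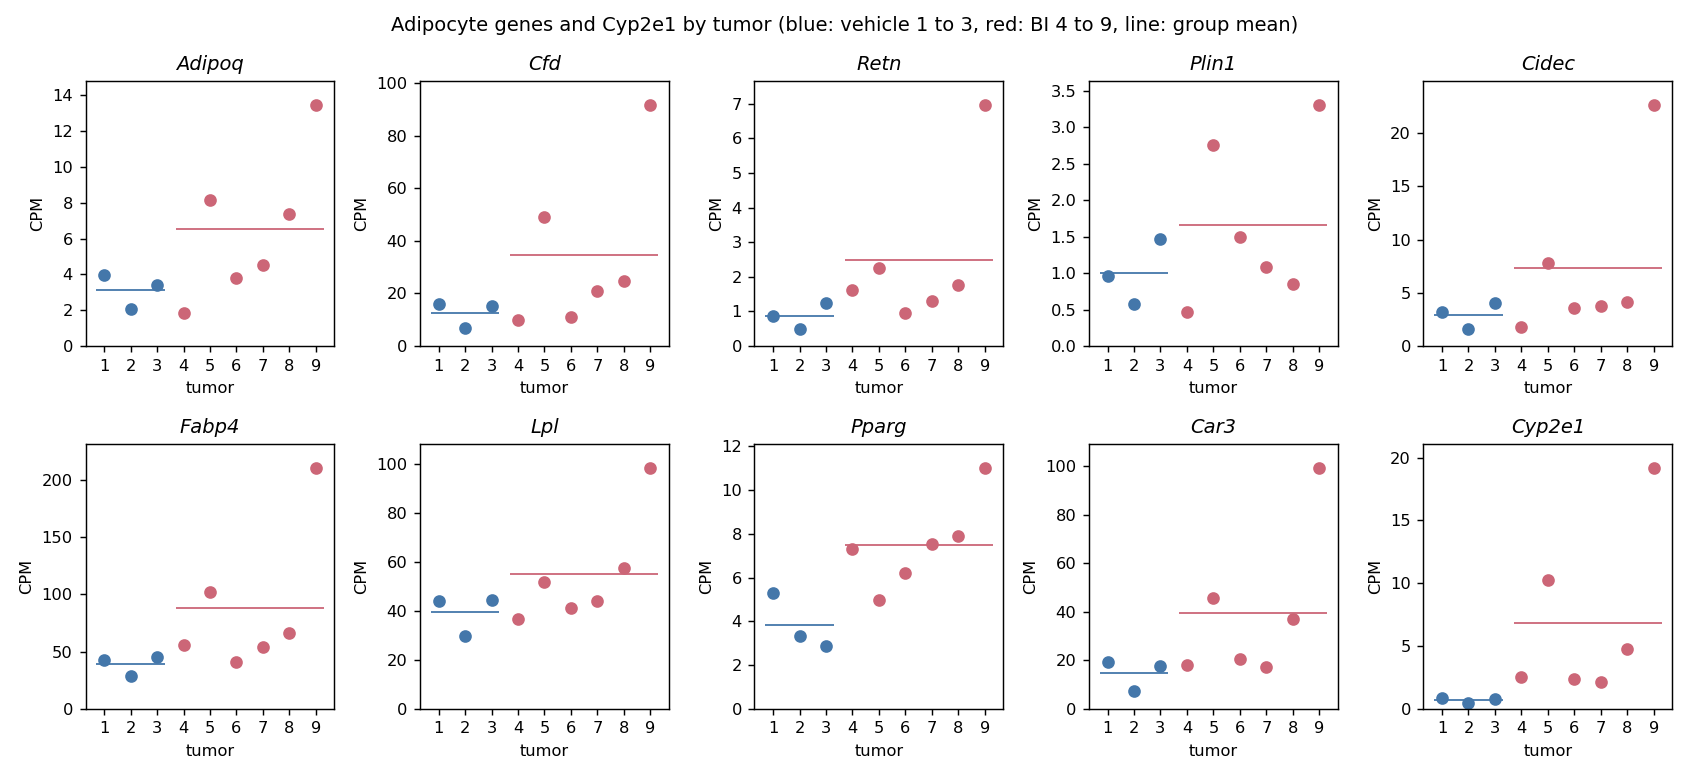
Normalized CPM (linear axes from 0) of each member in each tumor, with vehicle tumors 1 to 3 in blue, BI tumors 4 to 9 in red, and a line at each group mean. BI tumor 9 is the highest point in all 10 panels, and only in the panel of Cyp2e1 do all 6 BI points lie above the 3 vehicle points.

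Among the secreted products, Adipoq (chr16:23146609-23158101, plus strand, mm9) encodes adiponectin, a hormone made almost only by adipocytes. Adipoq was at 3.99, 2.06 and 3.42 CPM in vehicle 1 to 3. In BI 4 to 9 it was at 1.84, 8.13, 3.82, 4.54, 7.36 and 13.5 CPM. The lowest of all 9 values was that of BI 4, below every vehicle tumor, and 4 of 6 BI tumors were above all vehicle tumors. The log2 fold change was 1.03 ± 0.489 (SE) and was 0.69 without BI 9.

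Cfd (chr10:79353598-79355401, plus strand) encodes adipsin, the complement factor D protease that fat cells release in large amounts. Its vehicle values were 15.9, 6.93 and 15.2 CPM, and the BI tumors ran from 9.92 over a median of 22.8 to 91.5 CPM. BI 4 and BI 6 lay between the vehicle values, and BI 5 and BI 9 reached 48.9 and 91.5 CPM. The log2 fold change was 1.43 ± 0.650, and 0.85 without BI 9.

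Retn (chr8:3655770-3660110, plus strand) encodes resistin, an adipocyte hormone of mice. It was at 0.871, 0.492 and 1.24 CPM in vehicle tumors and at a lowest value of 0.966, a median of 1.69 and a highest value of 6.96 CPM in BI tumors. BI 6 alone fell within the vehicle range. The highest BI value rested on 120 counts and the lowest vehicle value on 11, and the log2 fold change was 1.45 ± 0.606 (0.82 without BI 9).

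Of the lipid droplet proteins, Plin1 (chr7:86866050-86877662, minus strand) encodes perilipin 1, which coats the droplet and gates lipolysis. Plin1 was near the lower end of what was counted, at 0.963, 0.582 and 1.47 CPM in vehicle tumors and from 0.472 over 1.29 to 3.305 CPM in BI tumors. Only BI 5, BI 6 and BI 9 were above all vehicle tumors, and BI 4 was below all of them with 10 counts. The log2 fold change was 0.67 ± 0.539, and 0.37 without BI 9.

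Cidec (chr6:113374628-113385754, minus strand) encodes a protein that moves lipid between touching droplets so that they grow. It was at 3.16, 1.61 and 4.01 CPM in vehicle tumors, and at 1.80, 3.94 and 22.6 CPM as lowest, median and highest in BI tumors. Without BI 9 the BI tumors reached at most 7.82 CPM, and the log2 fold change went from 1.28 ± 0.688 to 0.50.

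Of the genes of fatty acid handling, Fabp4 (chr3:10204347-10208576, minus strand), the fatty acid binding protein of adipocytes that macrophages and capillary endothelium also make, was the most abundant member per length. It had a mean of 60.4 RPKM (CPM per kilobase of gene) in vehicle tumors and 137 RPKM in BI tumors. On the CPM scale it was at 42.6, 28.2 and 45.3 in vehicle tumors, and at 41.0, 60.6 and 210.4 as lowest, median and highest in BI tumors. BI 6 fell within the vehicle range and the other 5 BI tumors were above it, with a log2 fold change of 1.18 ± 0.458 (0.71 without BI 9).

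Lpl (chr8:71404390-71431347, plus strand) encodes lipoprotein lipase, which frees fatty acids from lipoproteins and is expressed by macrophages as well as fat and muscle cells. Its vehicle values of 44.3, 30.0 and 44.5 CPM and BI values of 36.6, 48.0 and 98.6 CPM (lowest, median, highest) overlapped over most of their ranges. The log2 fold change, 0.47 ± 0.272 and 0.22 without BI 9, was the smallest of the 10.

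Pparg (chr6:115311239-115440419, plus strand), the nuclear receptor at the head of adipocyte differentiation, differed in pattern from the other members. It was at 5.27, 3.31 and 2.89 CPM in vehicle tumors, so that vehicle 3 and not vehicle 2 was lowest, and at 4.95, 7.44 and 11.0 CPM as lowest, median and highest in BI tumors. BI 5, the second highest BI tumor for 8 of the members, was the lowest for Pparg and the only BI tumor below a vehicle tumor. Its log2 fold change, 0.98 ± 0.252, was smaller than that of Adipoq with a smaller standard error (0.252 against 0.489), and was 0.84 without BI 9.

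Of the enzymes, Car3 (chr3:14863538-14872351, plus strand) encodes carbonic anhydrase 3, a cytosolic protein abundant in fat and slow-twitch muscle. It was at 19.5, 7.29 and 17.9 CPM in vehicle tumors and at 17.2, 28.8 and 99.4 CPM as lowest, median and highest in BI tumors. BI 4 and BI 7 lay within the vehicle range. The log2 fold change was 1.40 ± 0.559, and 0.89 without BI 9.

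Cyp2e1 (chr7:147949638-147960874, plus strand) had the widest separation. It was at 0.871, 0.492 and 0.766 CPM in vehicle 1 to 3, from 19, 11 and 26 counts. In BI 4 to 9 it was at 2.55, 10.2, 2.37, 2.11, 4.74 and 19.2 CPM, from 54, 196, 49, 47, 83 and 331 counts. The lowest BI tumor was above the highest vehicle tumor, which held for 14.1% of all genes tested and for no other member. Means were 0.710 ± 0.196 CPM (SD, n = 3) and 6.86 ± 6.77 CPM (SD, n = 6), a ratio of 9.67, with a log2 fold change of 3.24 ± 0.816 (2.61 without BI 9). Per length, Cyp2e1 was the lowest of the 10 genes in vehicle tumors (0.409 RPKM) and stood above Retn, Plin1 and Pparg in BI tumors (3.95 RPKM against 1.92, 0.868 and 3.78), although the last pair differed by less than the spread among tumors.

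**Figure D2:**
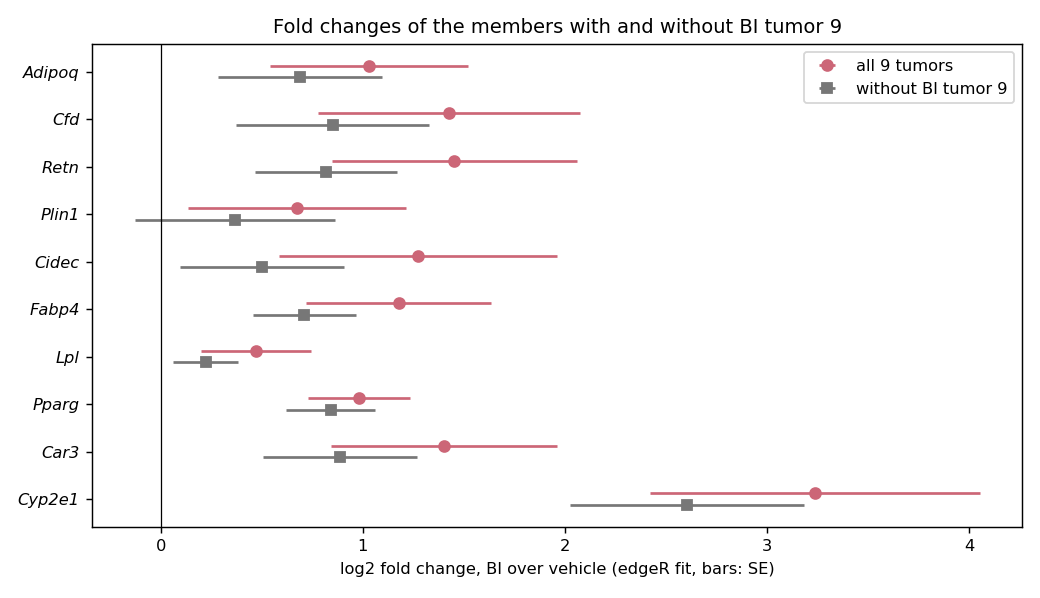
Log2 fold change of BI over vehicle for each member (x axis, edgeR estimates, bars are standard errors), from all 9 tumors (red circles) and without BI tumor 9 (grey squares). All 10 estimates stay above 0 and move toward it without BI tumor 9, with Cyp2e1 farthest out in each fit at 3.24 and 2.61.

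The members spread more among tumors than most genes did. Within the BI group, the SD of log2 CPM ranged from 0.378 for Pparg to 1.28 for Cyp2e1, with a median of 0.980, where the median over all genes tested was 0.143. The SD of 9 members was above that of 90% of genes tested, and that of Cyp2e1 was above 99.8%. The highest BI tumor exceeded the lowest 12.6-fold for Cidec, 9.23-fold for Cfd and 9.08-fold for Cyp2e1, against 2.22-fold for Pparg. Within the vehicle group, the members' median SD was 0.541 and that of all genes 0.118, and Car3 was the most variable member at 0.778. Cyp2e1 was among the steadier members there, at 0.378.

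The order of the tumors was shared. BI 9 was the highest BI tumor for all 10 members and for 19.0% of genes tested, BI 5 was second for 8 members, and vehicle 2 was the lowest vehicle tumor for 9 members and for 35.8% of genes. The lowest BI tumor was BI 4 for 5 members, BI 6 and BI 7 for 2 each, and BI 5 for Pparg. Summed over the 10 members, vehicle 1 to 3 stood at 137, 81.0 and 137 CPM and BI 4 to 9 at 135, 285, 132, 156, 212 and 577 CPM. By this sum BI 4 and BI 6 were within the vehicle range, and BI 9 was more than 2-fold above any other tumor.

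Whether the members moved together was tested within the BI group, without the vehicle values. The members had been selected on counts that include these BI tumors. Selection for a high BI mean can favor genes that are high in BI 9, so the test is not independent of the selection. The log2 CPM of each other member was correlated with that of Adipoq over the 6 BI tumors, with exact two-sided permutation tests over the 720 pairings and Benjamini-Hochberg adjustment over 9 genes. Cfd (r = 0.928, exact p = 0.00694; rho = 1, exact p = 0.00278), Cidec (r = 0.920, exact p = 0.0125; rho = 1, exact p = 0.00278) and Lpl (r = 0.903, exact p = 0.0139; rho = 0.943, exact p = 0.0167) passed, each with an adjusted exact p of 0.0417 for r and of 0.0125, 0.0125 and 0.05 for rho. The rank order of the 6 tumors was thus identical for Adipoq, Cfd and Cidec, and 0.00278 is the smallest exact p that a rank order over 6 tumors can give. Without BI 4 and BI 9, the tumors farthest from the median of Adipoq, r over the other 4 was 0.893, 0.763 and 0.926.

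Another 3 members had r above 0.8 without passing the adjusted threshold. Car3 had r = 0.891 (adjusted exact p = 0.055; rho = 0.829, adjusted exact p = 0.0875), Cyp2e1 had r = 0.847 (adjusted exact p = 0.055; rho = 0.771, adjusted exact p = 0.116), and Plin1 had r = 0.825 (adjusted exact p = 0.0667; rho = 0.771, adjusted exact p = 0.116). Without BI 4 and BI 9, r was 0.936 for Car3 and 0.912 for Cyp2e1 but 0.274 for Plin1, whose relation therefore rested on those tumors. Fabp4 (r = 0.795, adjusted exact p = 0.0714; rho = 0.829, adjusted exact p = 0.0875) and Retn (r = 0.726, adjusted exact p = 0.122; rho = 0.829, adjusted exact p = 0.0875) were weaker over 6 tumors and had r of 0.922 and 0.976 over the 4. For Pparg, r was 0.316 (adjusted exact p = 0.553; rho = 0.371, adjusted exact p = 0.497) and turned to -0.276 over the 4 tumors. With Plin1 in place of Adipoq as the reference gene, 0 of the 9 passed (2 at an unadjusted exact p of at most 0.05).

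**Figure D3:**
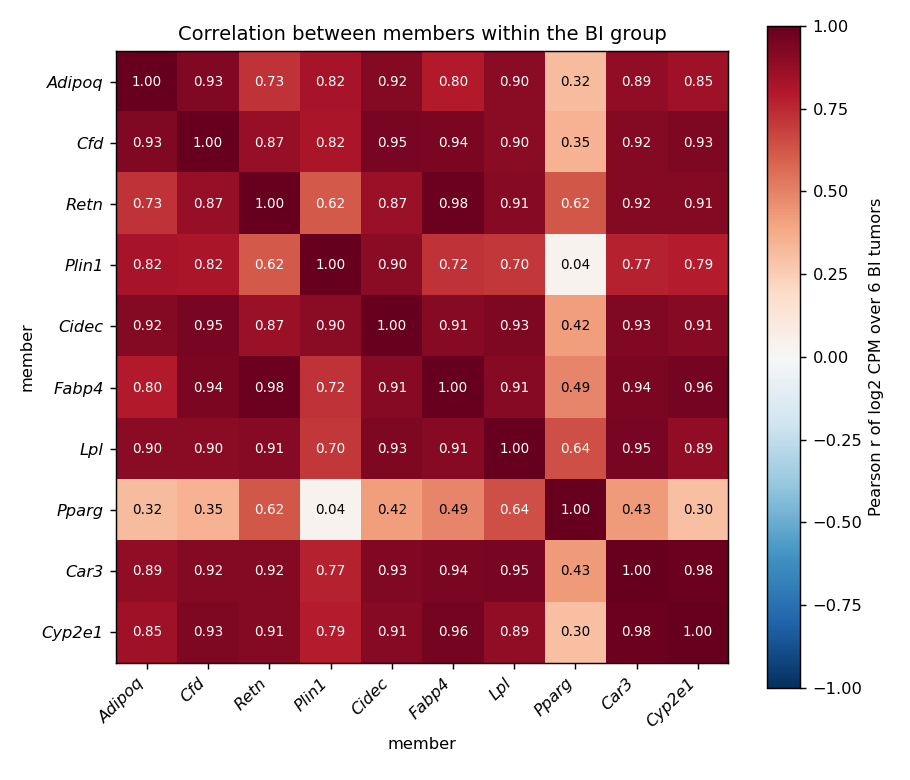
Pearson correlation of log2 CPM between each pair of members over the 6 BI tumors, on a color scale from -1 (blue) to 1 (red) with the value printed in each cell. Pparg stands out as the pale row and column, with a median of 0.417 with the other members, and the darkest cells off the diagonal are Retn with Fabp4 at 0.982 and Car3 with Cyp2e1 at 0.979.

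Over all 45 pairs of members within the BI group, r was above 0.8 for 29 and below 0 for 0, with a median of 0.891 and a range from 0.0355 (Plin1 with Pparg) to 0.982 (Retn with Fabp4), followed by Car3 with Cyp2e1 at 0.979. These pairs share the same 6 libraries and the same normalization and are given without a p. Cyp2e1 had a median r of 0.911 with the other members, as high as Cidec and Fabp4 at 0.912. Pparg had the lowest, 0.417.

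The ratio of each member to Adipoq, per length, was compared within tumors, as a description. It removes variation that a gene shares with Adipoq, but it also brings in the spread of Adipoq. In BI tumors, highest over lowest was 6.53-fold for the Pparg ratio against 2.22-fold for its level, and 3.10-fold against 2.70-fold for Lpl. For every other member the ratio had the narrower range. The ratio still contains the difference between groups on which the members were selected. The Cyp2e1 ratio was 0.155, 0.170 and 0.159 in vehicle 1 to 3. These values came from 19, 11 and 26 counts of Cyp2e1 and 87, 46 and 116 of Adipoq. They lie closer together than counting error at such counts (intervals below), so their small SD does not measure the precision of the ratio. In BI 4 to 9 the Cyp2e1 ratio was 0.983, 0.892, 0.440, 0.330, 0.457 and 1.01. The groups did not overlap, with means of 0.161 ± 0.0076 (SD, n = 3) and 0.686 ± 0.309 (SD, n = 6). BI 4, in which Adipoq was lower than in any vehicle tumor, had the second highest ratio. For the other 8 members the ratio overlapped between the groups; that of Car3 was 2.86 to 4.21 in vehicle tumors and 3.06 to 7.85 in BI tumors, and that of Cfd was 4.50 to 5.94 and 3.80 to 9.08.

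As a share of the counts of Cyp2e1 and Adipoq together, Cyp2e1 made up 17.9% in vehicle 1 (exact 95% confidence interval 11.2 to 26.6), 19.3% in vehicle 2 (10.05 to 31.9) and 18.3% in vehicle 3 (12.3 to 25.7). In BI 7, the BI tumor with the lowest share, it was 31.8% (24.4 to 39.9), which overlaps the intervals of the vehicle tumors, and in BI 9, the highest, it was 58.8% (54.6 to 62.9). The intervals cover counting error only. Of the 45 pairs of members, 9 had ratios that did not overlap between the groups, and all 9 were Cyp2e1 over another member. These 9 share Cyp2e1, which had the largest log2 fold change of the members (3.24), so they are not separate results. They restate the difference on which the members were selected, and the share over all pairs of genes was not computed. The narrowest gap was that over Pparg, from 0.303 in the highest vehicle tumor to 0.320 in the lowest BI tumor.

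Across 13965 other genes tested, 0.0644% (9 genes, Cyp2e1 included) had a ratio to Adipoq that was higher in all BI tumors than in all vehicle tumors. The other 8, named here after their values were seen, were Fmo1, Aldh1a1, Aldh1a3, Sult1a1, Atp6v1b1, Gria4, Ibsp and Tmprss2. Adipoq itself had a higher mean in BI tumors (6.52 against 3.15 CPM) and was highest in BI 9, which lowers this share. On CPM alone, 14.1% of genes had all BI tumors above all vehicle tumors. Cyp2e1 had the largest fold change of the members, which were selected on this difference, so nothing is read from its place here. Fmo1 (a flavin monooxygenase), Aldh1a1 and Aldh1a3 (retinaldehyde dehydrogenases) and Sult1a1 (a sulfotransferase) are, like Cyp2e1, enzymes that oxidize or conjugate small molecules. Atp6v1b1, Gria4, Ibsp and Tmprss2 do not encode such enzymes, and whether the genes share a function was not tested. Most had few counts in vehicle tumors, with 15 for Fmo1, 19 for Aldh1a1, 6 for Aldh1a3 and 50 for Sult1a1 over the 3 tumors together. Atp6v1b1 had 14, Gria4 5, Ibsp 235 and Tmprss2 26, against 56 for Cyp2e1.

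**Figure D4:**
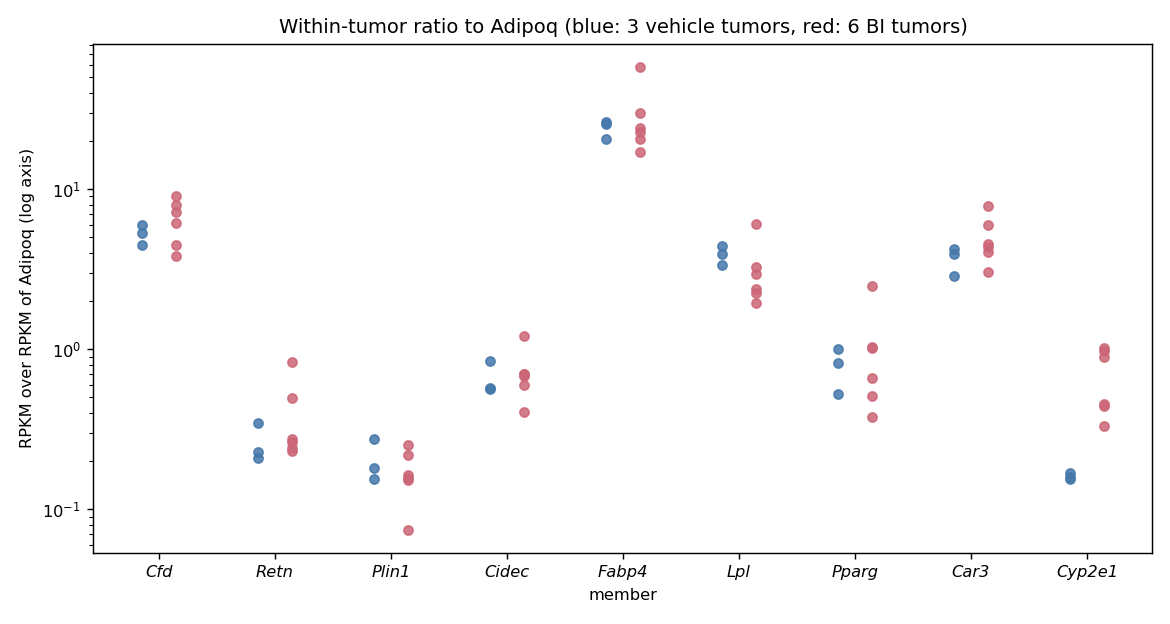
Ratio of each other member to Adipoq within each tumor (y axis, RPKM over RPKM of Adipoq, log scale), with vehicle tumors in blue and BI tumors in red. Only for Cyp2e1 are the groups apart, with 0.155 to 0.170 in vehicle tumors and 0.330 to 1.01 in BI tumors.

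Genes whose pattern was most like that of the members were ranked by the correlation of group-centred log2 CPM with the members' mean over the 9 tumors, among 12178 genes compared, as a description. The 10 most alike, with r from 0.985 to 0.910, were Hp, Xkr8, Gpd1, Cdo1, Eif2b4, Scd1, Art3, Fibin, Muc1 and C130074G19Rik. The ranking is by pattern and not by size. The highest BI tumor exceeded the lowest 1.19-fold for Eif2b4 and 1.47-fold for Xkr8, against 4.09-fold for Hp. Whether the 10 genes share a function was not tested. Hp encodes haptoglobin, which binds free hemoglobin and is made by liver and fat. Hp was at 36.2, 23.7 and 41.0 CPM in vehicle tumors and at 29.4, 65.2, 37.8, 34.7, 45.9 and 120.5 CPM in BI 4 to 9, so that vehicle 2 was again lowest and BI 9 and BI 5 again highest. Scd1, the desaturase that makes oleate, was at 98.1 to 181 CPM in BI 4 to 8 and at 488 CPM in BI 9. Gpd1, which makes glycerol phosphate for triglyceride, was at 10.1 CPM in BI 9 and at most 3.71 CPM in any other tumor. For Cyp2e1 alone, the 5 genes most alike were Miga1, Hp, Tbl2, Scd1 and Xkr8 (r from 0.959 to 0.922), of which Hp, Scd1 and Xkr8 were also among the 10 above. Group means were removed before the ranking, and Tbl2 was lower in all 6 BI tumors than in any vehicle tumor (log2 fold change -0.32). Of the members themselves, r with this mean ran from 0.457 for Pparg and 0.810 for Plin1 to 0.975 for Lpl; each member is part of the mean.

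Other genes of the adipose program, in 7 lists without the members, moved in either direction. Of 118 genes tested, 26 (22.03%) rose and 13 (11.02%) fell in edgeR by the same limit on the adjusted p, beside 14.6% and 14.1% of all genes, and their median log2 fold change was 0.09 beside -0.0037. The lists differed from each other in their counts and medians, and no list was tested against other genes.

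Of 18 adipogenic regulators tested, 6 rose and 1 fell, with a median of 0.20. Cebpa, the C/EBP factor that acts beside PPAR gamma in mature fat cells, rose by 0.82 ± 0.105 (adjusted p = 0.000217) from 18.9 to 33.3 CPM, with all 6 BI tumors (30.6 to 37.3 CPM) above the vehicle tumors (15.4 to 20.9 CPM). In contrast to the members, Cebpa was lowest in BI 9 among the BI tumors. Nr1h3, the oxysterol receptor LXR alpha, rose by 0.66 ± 0.139 (adjusted p = 0.00459), and Stat5b by 0.29. Klf5, a factor of early adipogenesis and of epithelia, fell by 0.49. Cebpb, the most abundant gene of the list, had a log2 fold change of -0.39 (adjusted p = 0.0575).

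Among 17 genes of lipid droplets and lipolysis, 2 rose and 3 fell, with a median of 0.07. Bscl2 (seipin, needed for droplet formation) rose by 0.81 ± 0.0832 and Lipe (hormone-sensitive lipase) by 0.39, a call lost without any of the 3 vehicle tumors (adjusted p up to 0.0867). G0s2, an inhibitor of the lipase ATGL, fell by 1.24 ± 0.250, Hilpda, a hypoxia-induced droplet protein, fell by 0.67, and Cavin1 by 0.49. Of the perilipin relatives of Plin1, Plin2, the most abundant of the list and expressed in many cell types, had a log2 fold change of -0.09 (adjusted p = 0.601), Plin3 0.01 (adjusted p = 0.936), and Plin4, an adipocyte perilipin, 0.63 (adjusted p = 0.352) with 15.1 CPM in BI 9 and at most 7.42 CPM elsewhere. Cidea, Cideb and Plin5 had too few counts to be tested.

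Fatty acid and triglyceride synthesis gave 2 genes higher and 3 lower of 21, with a median of -0.04. Pck1, which makes glycerol phosphate from non-sugar precursors in fat, was at 1.1, 0.447 and 0.795 CPM in vehicle tumors and reached 8.81 CPM in BI 5 and 7.94 CPM in BI 9, while BI 4, BI 6 and BI 7 stayed between 1.16 and 1.18 CPM. Its log2 fold change was 2.27 ± 0.784 (adjusted p = 0.0477), and this call was lost in limma-voom (adjusted p = 0.159) and without any of vehicle 1, 2 or 3 or BI 5, 8 or 9 (adjusted p up to 0.145). Pcx rose by 0.56, and Insig1, Elovl6 and Agpat2 fell by 0.74, 0.44 and 0.34; without vehicle 1 the adjusted p was 0.0517 for Insig1 and 0.124 for Elovl6. Thrsp, a lipogenic gene chosen here after its values were seen, reached 6.49 CPM in BI 9 against at most 1.67 CPM elsewhere (log2 fold change 2.64 ± 1.03, adjusted p = 0.0736).

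Of 14 genes of fatty acid uptake and of lipoprotein lipase partners, 4 rose and 0 fell (edgeR), with a median of 0.16. Apoe, the lipoprotein ligand that macrophages secrete in large amounts, rose by 1.42 ± 0.156 (adjusted p = 8.43e-05) from 551 to 1474 CPM and was highest in BI 6, not BI 9. Fabp5, the paralog of Fabp4 found in macrophages and epithelium, rose by 0.73 and was highest in BI 4; Apoc2, the activator of lipoprotein lipase, rose by 0.99; and Gpihbp1, which holds that enzyme on capillaries, rose by 0.65. Without vehicle 3 the calls of Fabp5 and Apoc2 were lost, as was that of Fabp5 without vehicle 1 (adjusted p up to 0.0733 for Fabp5, and 0.065 for Apoc2).

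Among 23 adipokines, hormones and receptors, 5 rose and 4 fell, with a median of 0.14. Rarres2, the most abundant of the list, encodes chemerin and rose by 0.83, and its receptor Cmklr1 rose by 1.04 ± 0.0791 (adjusted p = 1.285e-05). Pde3b rose by 0.41 (adjusted p = 0.0535 without vehicle 3). Retnlg, a resistin relative expressed by neutrophils, fell by 1.43 ± 0.158, in the opposite direction to the fitted value of Retn, while Retnla, the relative found in alternatively activated macrophages and fat, had 0.84 (adjusted p = 0.372). Irs1, which carries the insulin signal, fell by 0.98, and Apln by 0.67.

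Of 17 genes of adipose stroma and preadipocytes, 6 rose and 1 fell, with a median of 0.47. Pi16 and Dpp4, markers of fibroblast-like progenitors in fat, rose by 1.59 ± 0.209 and 1.03 ± 0.173, with all BI tumors above all vehicle tumors for each. Fmo2, a flavin monooxygenase, rose by 1.44 ± 0.366 (not called without vehicle 1 or 3, adjusted p up to 0.0573) and Anxa3 fell by 0.67; Itgb1, the most abundant of the list, was at -0.03 (adjusted p = 0.776). Of 8 brown and beige fat genes tested, 1 rose (Prdm16, from 0.188 to 0.865 CPM) and 1 fell (Pank1, not called without vehicle 1 or 3, adjusted p up to 0.117), with a median of -0.05. Elovl3 and Zic1, markers of brown fat, were at 3 counts or fewer in every tumor.

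**Figure D5:**
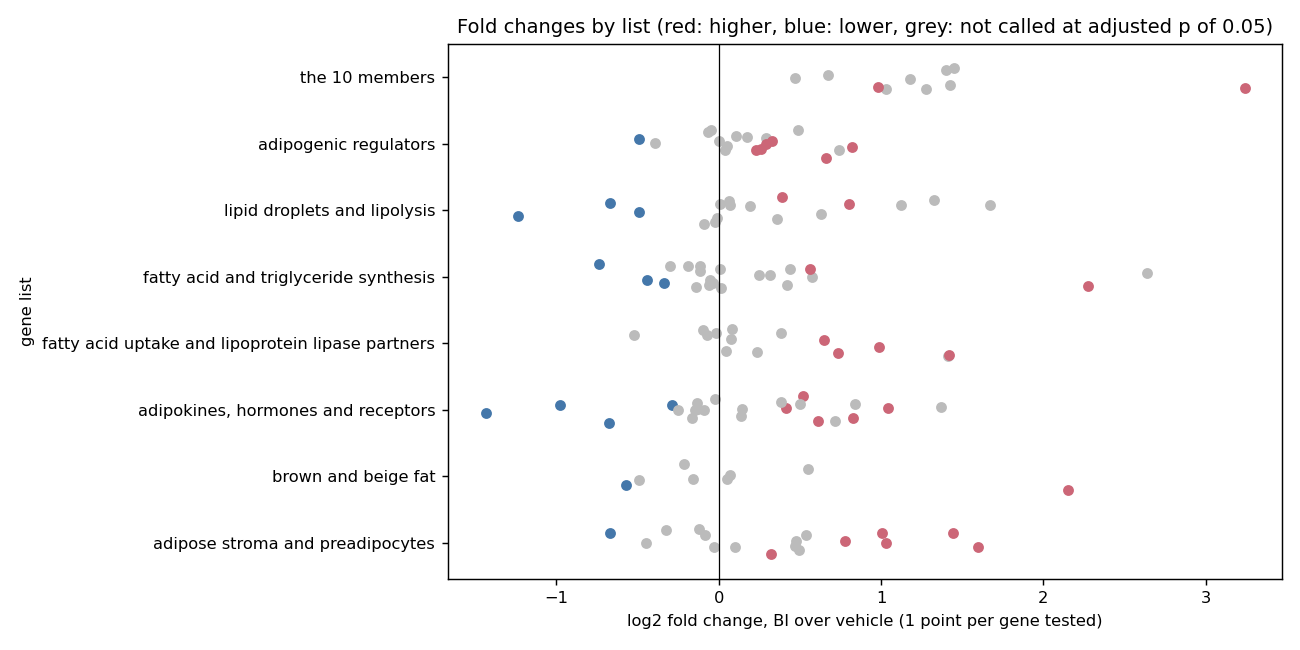
Log2 fold change of BI over vehicle (x axis) for every tested gene of the 7 adipose lists and for the 10 members (1 point per gene, red for higher, blue for lower, grey for not called at an adjusted p of 0.05). The members all lie right of 0, whereas the 7 lists lie on either side of 0 with medians from -0.05 to 0.47.

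For Cyp2e1, the enzymes around it were counted in the same way. Of 16 partners of P450 enzymes and genes of alcohol oxidation tested, 5 rose and 3 fell, with a median of 0.15. Over all genes tested, 14.6% were called higher and 14.1% lower. Por, the reductase that passes electrons to P450 enzymes, fell by 0.47 ± 0.0991 (adjusted p = 0.00478) from 229 to 166 CPM, and Cyb5a, the cytochrome b5 that can pass them as well, rose by 0.36 ± 0.0803 (adjusted p = 0.00661). Fmo1 rose by 3.15 ± 0.529 from 0.174 to 1.72 CPM, and like Cyp2e1 it was highest in BI 9. Gsta4, which conjugates products of lipid peroxidation, fell by 1.08, and Adh5 by 0.18, a call lost without any of vehicle 1 or 2 or BI 7, 8 or 9 (adjusted p up to 0.148).

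Other cytochrome P450 genes moved in either direction. Of 56 found in the table, 23 could be tested, 7 rose and 2 fell, with a median of 0.04. For this family and the carbonic anhydrases below, the shares over all genes tested were 14.6% higher and 14.1% lower. Cyp4v3 rose by 0.79, Cyp27a1 by 1.39 ± 0.163 and Cyp2d22 by 1.096, each with all BI tumors above all vehicle tumors, and Cyp2c55 fell by 0.88 and Cyp1b1 by 0.54, a call lost without any of the vehicle tumors or BI 6 or 9 (adjusted p up to 0.168). Cyp2f2 rose by 2.30 ± 0.555 from 0.189 to 1.01 CPM and was highest in BI 9. Among 9 other carbonic anhydrase genes tested, 1 rose (Car8, from 0.104 to 0.623 CPM) and 4 fell, with a median of -0.18: Car12 by 0.95 ± 0.110, Car9, the hypoxia-induced membrane form, by 0.88 ± 0.113, Car13 by 0.49 and Car5b by 0.33. The fitted value of Car3 was 1.40.

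Markers of other cell types were read for the same tumors, beside 14.6% of all genes tested called higher and 14.1% lower. Liver markers were near the limit of counting: 12 of 16 were in the table, Apoa1, Ttr, Fga, Fgb and Cyp3a11 were at 3 counts or fewer in every tumor, and the list summed to 1.70 to 2.33 CPM in vehicle tumors and 1.28 to 2.67 CPM in BI tumors. Of 9 mammary epithelium and milk genes tested, 6 rose and 0 fell (edgeR), while Areg, the most abundant, had a log2 fold change of -0.08 (adjusted p = 0.791); the list had a sum of 73.1 to 84.7 CPM in vehicle tumors and 89.0 to 122 CPM in BI tumors. Elf5, a factor of the milk-producing lineage, rose by 2.29 ± 0.547, Oxtr by 1.92 (not called without vehicle 1, vehicle 2 or BI 7, adjusted p up to 0.0998) and Esr1 by 0.92. The summed level of the list was also highest in BI 9, where Prlr, the prolactin receptor, chosen here after its values were seen, stood at 18.1 CPM against at most 7.68 CPM elsewhere; the milk genes Csn1s1 and Wap were at 3 counts or fewer in every tumor. Macrophages can also express Fabp4, Lpl and Pparg, and their markers were higher for 11 of 13 genes and lower for 1 (Cd14), with sums of 3320 to 4199 CPM in vehicle tumors and 5662 to 7485 CPM in BI tumors, highest in BI 6.

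Endothelial markers, another source of Fabp4, rose for 4 of 13 genes and fell for 0 (edgeR), with sums of 266 to 298 CPM and 297 to 420 CPM and the highest in BI 5. Fibroblast markers rose for 4 of 12 and fell for 0 (edgeR), with sums of 10467 to 11806 CPM and 14839 to 20901 CPM. Mast cell markers rose for 8 of 10 and fell for 1, with sums of 66.1 to 95.5 CPM and 84.9 to 550 CPM, and they were highest in BI 4. In BI 4 the members' sum was within the vehicle range. There, Cyp2e1, Pparg, Retn and Fabp4 were above all vehicle tumors, Adipoq and Plin1 were below all of them, and Cfd, Cidec, Lpl and Car3 were within their range. Neutrophil markers rose for 0 of 11 and fell for 4, and skeletal muscle markers, of a tissue that also makes Car3 and Lpl, rose for 0 of 8 and fell for 2, with sums of 116 to 134 CPM and 82.8 to 94.4 CPM. Schwann cell markers rose for 0 of 8 and fell for 3, and keratinocyte markers rose for 0 of 4 and fell for 1. Over all genes tested 14.6% were called higher and 14.1% lower, and no cell type list was tested against these shares. Leaving out any 1 vehicle tumor lost the calls of Pmp22 and Ngfr (Schwann cell, edgeR adjusted p up to 0.143 and 0.0991). The call of Pmp22 was also lost without BI 5, 7, 8 or 9, and that of Ngfr without BI 6, 7 or 9 and in DESeq2. Leaving out vehicle 3 lost the calls of Krt10 (keratinocyte, adjusted p = 0.265) and of Cdh5, Kdr and Tie1 (endothelium). Tpsab1 and Hdc (mast cell) and Thy1 and Fbln1 (fibroblast) each lost the call without at least 1 vehicle tumor. The part of these cell types in the values of the members was not tested.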

How the data were processed

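Per the labels and the methods of the study, the authors prepared stranded mRNA libraries, sequenced them as pairs, aligned reads to mm9 with STAR and deposited raw counts per RefSeq gene (uniquely aligned reads starting in an annotated exon), without normalization, with gene lengths. Whether counting used strand was not given in the sources used here; no member shares exons with another gene in GENCODE M1 on mm9. Symbols came from RefSeq (18700 of 18755 genes). From the counts, CPM (TMM), RPKM (CPM per kilobase of deposited length) and log2 CPM (prior count 2) were computed. Differences were fitted with edgeR 4.0.16 in R 4.3.3 (filterByExpr, minimum count 10 and minimum total 15, quasi-likelihood F test, no covariates, adjustment over all 13966 genes tested), with DESeq2 1.42.0 and limma 3.58.1 as alternatives, and the scripts were tested on simulated data. SE is the size of the fold change divided by the square root of F. Correlations used exact permutation tests (scipy 1.17.1).

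The members and gene lists were chosen with earlier results of these data known. Genes named are the members, their families, up to 3 genes per list and direction with the smallest p among those called, the most abundant gene per list by RPKM, the 10 genes most like the members and the 5 most like Cyp2e1; others are said to be chosen after their values were seen, or are part of a small count. Labels number the tumors 1 to 9 but do not state separate mice, so that p-values measure the spread between these samples. Within groups, tumors differed beyond counting error (mean chi-square per gene 8.70 to 29.5, where 1 is expected), so none was taken as a repeat sequencing of the same library. This comparison cannot tell whether samples came from separate tumors or separate mice.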

Additional observations from a re-analysis of the deposited data

Results flagged for a closer look

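In 5 members the highest of the 6 BI tumors, BI 9 each time, stood apart from the rest: the gap to the next tumor divided by the range of the group was 0.787 for Retn, 0.710 for Cidec, 0.658 for Lpl, 0.653 for Car3 and 0.641 for Fabp4, above Dixon's limit of 0.625 for 6 samples. The gaps were taken on CPM, a linear scale, and were not computed on log2 CPM, the scale used above for spread and correlation. For normally distributed values, chance puts about 1 in 20 groups past this limit at either end. Whether CPM values were distributed in this way was not tested. Of all genes tested, 5.42% passed it at either end and 3.39% at the highest tumor. The members vary together, so these 5 values are not independent of each other. Without BI 9 the median log2 fold change of the members was 0.765 in place of 1.23, all 10 values stayed above 0, and Pparg and Cyp2e1 were still the members called.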

How the results depend on the processing

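All 10 members had a positive fold change in each of the 16 settings of the fit. With an unadjusted p of at most 0.05 and a change of at least 1.5-fold as the rule, 1339 genes were higher, 499 lower, 6 members higher and 7 program genes lower, against 2040, 1973, 2 and 13. In limma-voom 1 member was called (Pparg), and in DESeq2 3 (Retn besides Cyp2e1 and Pparg). Leaving out 1 tumor at a time gave 1332 to 2026 genes higher, 1172 to 1980 lower, 0 to 3 members higher, 0 to 0 lower, 13 to 27 program genes higher and 9 to 15 lower. The smallest counts of genes came without vehicle 3, where 0 members were called (5 at an unadjusted p of at most 0.05); Pparg was not called without vehicle 2 either, Adipoq was called without BI 4 and Fabp4 without BI 6. With all 9 tumors centred on their group means, 7 members correlated with Adipoq, and with Plin1 as the reference gene 0 did (2 at an unadjusted exact p of at most 0.05; smallest adjusted p 0.113). Signs changed for the correlation of Pparg with Adipoq (-0.276 over 4 tumors), the fold change of Itgb1 (-0.042 to 0.0036 over the tumors left out, positive without BI 8) and that of Areg (-0.29 to 0.11, positive without vehicle 2). Over 92 named genes and these settings, 1288 of 1377 fold changes kept their direction and side of the threshold, 72 lost and 15 gained the call, and 2 turned. The cause of these changes was not tested beyond the smaller number of samples. Correlations were tested over 6 or more tumors only and were not repeated with single BI tumors left out. No paired analysis was possible because the labels number the tumors 1 to 9 and the groups share no number. The lowest count of a member was 10 (Plin1 in BI 4), and the least expressed members carry the largest counting error.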
